A study of Rattus norvegicus with 10 samples.

Results

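The 4 cadherin genes Cdh13, Cdh11, Cdh2 and Cdh1 were followed across 5 lines derived from HSC-2, a rat (Wistar) hepatic stellate cell line. They were represented by all probe sets whose annotation gave one of these symbols and no other, which were 11 of the 31099 on the array. Cdh13, Cdh11 and Cdh2 had 3 probe sets each, and Cdh1 had 2. Of the 11, 8 were tested among 27520 probe sets, and the remaining 3 (1 of Cdh2 and both of Cdh1) sat at the floor of the deposited values on every array. The genes were selected with their differences between these lines already known, so those differences are given below as descriptions, with no p.

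Cadherins are calcium-dependent adhesion proteins of the cell surface that bind cadherins of neighbouring cells. Cdh2 (N-cadherin) and Cdh1 (E-cadherin) are classical type I cadherins, typical of mesenchymal or neural cells and of epithelia, and Cdh11 (OB-cadherin) is a type II cadherin of mesenchyme and activated fibroblasts. All 3 bind catenins inside the cell and through them the actin cytoskeleton. Cdh13 (T-cadherin) has no cytoplasmic domain, is held in the membrane by a glycosylphosphatidylinositol anchor and is a receptor for adiponectin. In liver fibrosis, Cdh11 is known from activated stellate cells, the pericytes that turn into contractile, matrix-producing cells.

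Clones S1, S4 and S5 were lines transfected with rno-miR-146a, which their titles call overexpressed. The promoter and vector are not given in the labels. They were set against a line transfected with a scrambled sequence, which the design text writes as GFPscr, and against untransfected HSC-2 cells. Every line was measured at passages 42 and 43, so that the 6 clone arrays faced 2 scrambled and 2 untransfected arrays. All cells were grown in high-glucose DMEM with serum. Each clone is 1 line. The labels do not say whether passages were grown or transfected separately, so every p-value below reflects spread among these particular samples, and that spread may be technical. The level of miR-146a itself was not analysed here.

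The labels name rno-miR-146a without an arm, and both mature products of the hairpin are therefore shown, from RefSeq on GRCr8, because they define what the clones were made to carry. The 5p product lies on the minus strand at chr10:28350053-28350074 and the 3p product on the same strand at chr10:28350019-28350039. Both are written 5′ to 3′ with the seed, bases 2 to 8, in capitals.
rno-miR-146a-5p: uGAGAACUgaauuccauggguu
rno-miR-146a-3p: aCCUGUGAaguucaguucuuu

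Values are deposited intensities on a linear scale with a floor of 20, at which 14.6% of all values lie and below which there is no order. Array medians over the tested probe sets were 131 to 139 intensity units, and the passages of a line correlated at 0.985 to 0.993 across probe sets. Precision is limited by the number of arrays. Of the 14 stellate cell markers, those shared with other mesenchymal cells were bright: Vim, an intermediate filament, was at 22676 to 24794 intensity units on the clone arrays and 21124 to 23550 on the control arrays, and the collagen Col1a1 at 20191 to 22766 on the clone arrays and 17936 to 24084 on the control arrays. Lrat, which esterifies retinol in quiescent stellate cells, was at the floor throughout, and Reln, Cygb, Gfap, Rgs5, Hgf and Ngfr reached at most 57.2 intensity units on any array. These values do not separate stellate cells from other fibroblasts, and the cell type is taken from the labels. The scrambled line stood apart from the untransfected line in Acta2, the actin of activated stellate cells, which was lower (log2 difference -2.89, limma adjusted p = 0.000171). Comparisons of the cadherins are therefore given against each control line, since a mean of the control lines would hide where they differ.

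Cdh13 was lower in all 3 miR-146a clones than in either control line, by 6.45-fold to 14.6-fold against the scrambled line and by 8.97-fold to 16.8-fold against the untransfected line over the 3 probe sets and 3 clones. Probe set 1375719_s_at, whose suffix marks probes that may match more than 1 transcript, had 239 and 177 intensity units in S1 at passages 42 and 43. S4 had 184 and 118, and S5 had 269 and 226. The scrambled line had 1854 and 1753 and the untransfected line 1903 and 2561. No clone array came near a control array. For this probe set the log2 differences from the scrambled line were -3.13 in S1, -3.61 in S4 and -2.87 in S5, with an SE of 0.25 each. From the untransfected line they were -3.43, -3.91 and -3.16, with the same SE.

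The other Cdh13 probe sets carried the same picture. Probe set 1369425_at had 100.2 and 78.7 in S1, S4 had 71.6 and 56.7, and S5 had 118 and 104, against 980.2 and 885 in the scrambled line and 855 and 1338 in the untransfected line. Its log2 differences were -3.39, -3.87 and -3.07 from the scrambled line and -3.59, -4.07 and -3.27 from the untransfected line for S1, S4 and S5 (SE 0.23). Probe set 1373102_at had 84.2 and 74.8 in S1, S4 had 69.7 and 41.5, and S5 had 94.6 and 91.8, against 689 and 524 in the scrambled line and 724 and 1003 in the untransfected line. Its log2 differences were -2.92, -3.48 and -2.69 from the scrambled line and -3.42, -3.99 and -3.19 from the untransfected line (SE 0.26). All clone values stayed above the floor, so none of these folds is a bound set by the floor. The clone values of 1369425_at and 1373102_at, 41.5 to 118, were nevertheless below the lowest array median of 131. So was the value of 1375719_s_at in S4 at passage 43, at 118. Whether they stood above the background of the arrays was not tested, and the folds may be understated if they did not.

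Within single passages the gap was as plain. Over the 3 probe sets and 3 clones, Cdh13 was 5.71-fold to 15.6-fold lower than in the scrambled line of the same passage and 7.09-fold to 24.2-fold lower than in the untransfected line of the same passage. Averaged over passages, the control lines lay close together, with scrambled minus untransfected log2 differences of -0.20, -0.50 and -0.29 for 1369425_at, 1373102_at and 1375719_s_at, each under 2 times its SE. In the same order, these differences were 0.20, -0.07 and -0.04 at passage 42. At passage 43 the scrambled line was lower on all 3 probe sets, at -0.60, -0.94 and -0.55. The 3 probe sets moved as one over the 10 arrays, with Pearson correlations of 0.995 to 0.998 between them, a description of arrays that share lines.

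**Figure D1:**
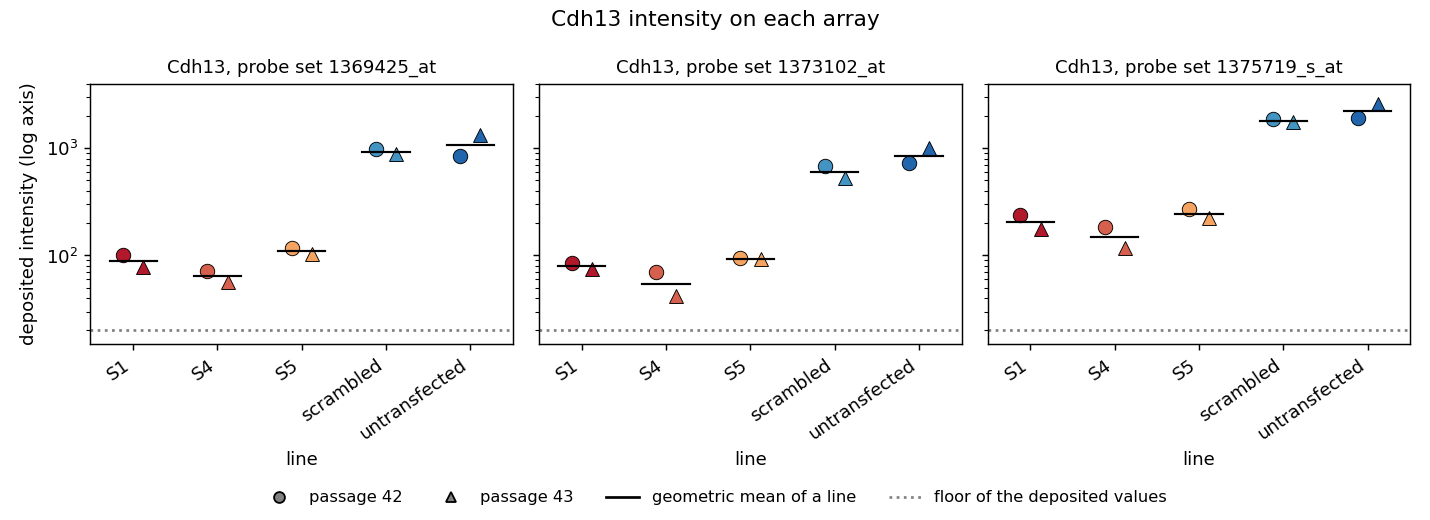
Deposited intensity of Cdh13 (log axis) on each of the 10 arrays, 1 panel per probe set, with circles for passage 42, triangles for passage 43, a bar at the geometric mean of each line and a dotted line at the floor of 20. On 1375719_s_at the 6 clone arrays sit between 118 and 269, and the 4 control arrays start at 1753 and reach 2561.

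In order of level, Cdh13 ran from the untransfected line through the scrambled line and S5 to S1 and S4, on all 3 probe sets. The untransfected and scrambled ranges overlapped on 1369425_at and did not on the other probe sets. S5 was above S1 and S1 above S4 at both passages on each of the 3. The ranges of S5 and S1, and of S1 and S4, overlapped on 1375719_s_at and did not on the other probe sets. The differences between clones were not used to choose the genes and were tested. On 1375719_s_at, S5 minus S4 was 0.74 and S4 minus S1 was -0.48 on the log2 scale (SE 0.25). None of the 8 member probe sets passed the moderated F test between clones (limma adjusted p = 1 for each), against 0.0327% of all probe sets. Unadjusted, 3 of the 8 had p under 0.05, the 3 of Cdh13, at 0.0241, 0.0421 and 0.0485 by limma. These 3 measure 1 gene and moved together over the arrays, so they are not separate results. The share of all probe sets with an unadjusted p under 0.05 was not counted, and nothing is read from these values.

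Cdh11 divided the lines differently, since it was low in the scrambled line and not in the clones. Probe set 1388936_at had 1145 and 2476 intensity units in S1. S4 had 936 and 1186, and S5 had 1209 and 2461. The scrambled line had only 132 and 126, and the untransfected line 2510.4 and 2321. Every clone array was thus above both scrambled arrays. S4 stayed below both untransfected arrays at each passage, while S1 and S5 lay below them at passage 42 and among them at passage 43.

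Against the scrambled line, 1388936_at was 13.1-fold higher in S1, 8.17-fold in S4 and 13.4-fold in S5 (log2 differences 3.71, 3.03 and 3.74, SE 0.40). Against the untransfected line, the log2 differences were -0.52 in S1, -1.20 in S4 and -0.49 in S5 (SE 0.40). The scrambled line itself was 18.7-fold lower than the untransfected line (log2 difference -4.23, SE 0.40), which was larger than any clone's difference from either control line on this probe set. The scrambled values behind these folds, 132 and 126, lay near the lowest array median of 131. Whether they stood above the background of the arrays was not tested, and the folds may be understated if they did not. The difference of S1 and of S5 from the untransfected line depended on passage. At passage 42 it was -1.13 in S1 and -1.05 in S5, and at passage 43 it was 0.09 and 0.08. In S4 it was -1.42 and -0.97.

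The mean of the 3 clones minus the mean of the 2 control lines was 1.38 on the log2 scale for this probe set, and it described neither control line. Without the scrambled line it was -0.73, and without the untransfected line 3.49. The order of levels was untransfected, S5, S1, S4 and scrambled. Neighbouring lines in that order overlapped in range except S4 and scrambled, and only the scrambled line stood clear of all others.

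**Figure D2:**
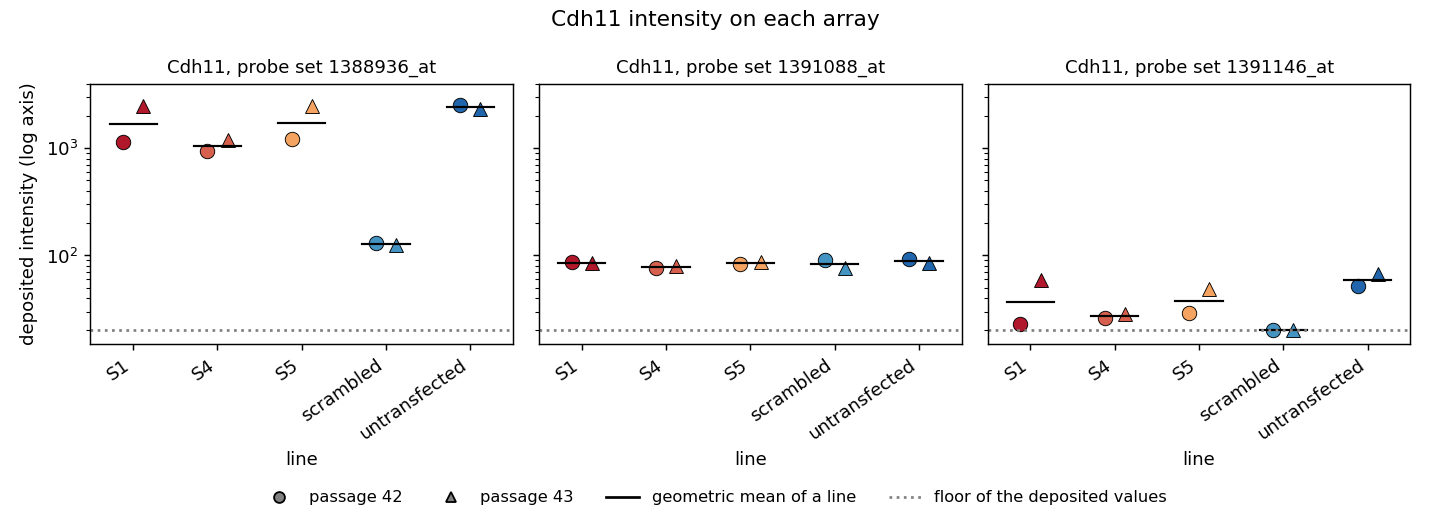
Deposited intensity of Cdh11 (log axis) on each of the 10 arrays, 1 panel per probe set, with circles for passage 42, triangles for passage 43, a bar at the geometric mean of each line and a dotted line at the floor of 20. On 1388936_at the 2 scrambled arrays sit at 132 and 126 while all other arrays lie between 936 and 2510.4, and 1391088_at is level across lines.

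Of the remaining Cdh11 probe sets, 1391146_at had the same order of line means as 1388936_at, at a far lower level. Probe set 1391088_at was level across lines. Probe set 1391146_at was dim. S1 had 22.8 and 59.4, S4 had 25.9 and 28.6, and S5 had 29.1 and 48.8, against the floor on both scrambled arrays and 52.0 and 66.7 in the untransfected line. Set against the floor of 20, it was at least 1.84-fold higher in S1 than in the scrambled line, at least 1.36-fold in S4 and at least 1.88-fold in S5. The scrambled line was at least 2.95-fold lower than the untransfected line. From the untransfected line the clones differed by -0.68, -1.11 and -0.65 for S1, S4 and S5 (SE 0.42). Probe set 1391088_at lay between 75.8 and 91.8 on all 10 arrays, with differences of -0.18 to 0.05 in the 7 comparisons (SE 0.11). Over the arrays 1388936_at correlated with 1391146_at at 0.815 and with 1391088_at at 0.255, so the 3 probe sets named for Cdh11 do not report one pattern.

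Cdh2 and Cdh1 gave little or no signal. Cdh2 probe set 1378271_at had 78.5 and 66.2 in S1, S4 had 72.0 and 80.8, and S5 had 73.2 and 72.9, against 68.4 and 67.4 in the scrambled line and 75.9 and 74.7 in the untransfected line. Its differences lay between -0.15 and 0.17 in all 7 comparisons (SE 0.11), each under 2 times its SE. Cdh2 probe set 1387259_at did not leave the floor in any clone or on the passage 43 array of either control line. It was at 25.5 in the scrambled line at passage 42 and at 22.6 in the untransfected line at passage 42. Cdh2 probe set 1368642_at and both Cdh1 probe sets, 1386446_at and 1386947_at, were at the floor on all 10 arrays, and no fold is given for them. Of the 4 genes only Cdh13 and Cdh11 therefore had probe sets that were bright in any line. No probe set of Cdh2, the classical mesenchymal cadherin, gave a clear level in these cells, and the genes are named singly here for that reason. Whether the dim probe sets detect their transcripts was not tested.

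**Figure D3:**
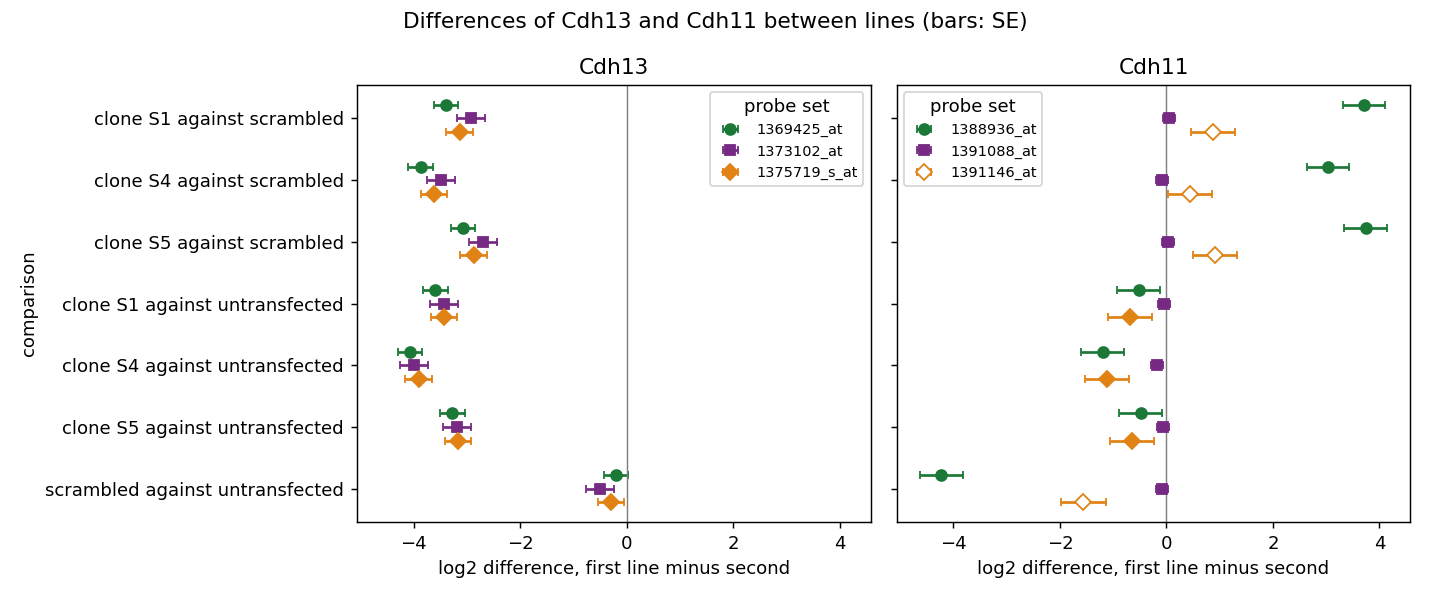
Log2 difference (horizontal axis, first line minus second) of the 3 Cdh13 and the 3 Cdh11 probe sets in each of the 7 comparisons, with bars for the SE and open symbols where a line was at the floor on both arrays, so that the value is a bound. All 18 Cdh13 values of clones against control lines lie between -4.07 and -2.69, and Cdh11 1388936_at is above 0 against the scrambled line and below 0 against the untransfected line.

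As a count, 3 of the 8 tested member probe sets, those of Cdh13, were past the limma threshold of adjusted p under 0.05 and lower in each of the 6 clone comparisons. One probe set, Cdh11 1388936_at, was past it and higher in each clone against the scrambled line, and none was higher against the untransfected line. Over all 27520 probe sets the share past the threshold was 4.19% for S1, 3.64% for S4 and 3.44% for S5 against the scrambled line, and 4.38%, 3.52% and 3.63% against the untransfected line. In the scrambled against the untransfected line only Cdh11 1388936_at of the 8 was past the threshold, and lower, with 6.1% of all probe sets called. The 6 clone arrays lay on one side of all 4 control arrays for 3 of the 8, again those of Cdh13, and for 7.5% of all probe sets. Since the genes were picked on these comparisons, nothing is read from their counts. The clone comparisons share their control arrays and are not independent of one another.

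Passage had not been used to choose the genes and was tested with line as a block. None of the 8 member probe sets passed, against 5.52% of all probe sets. Cdh11 1388936_at differed by 0.46 on the log2 scale between passage 43 and passage 42 (SE 0.20, limma adjusted p = 0.238). It was higher at passage 43 in all 3 clones, with passage 43 over passage 42 ratios of 2.16 in S1, 1.27 in S4 and 2.04 in S5, against 0.958 in the scrambled line and 0.925 in the untransfected line. The dim probe set 1391146_at differed by 0.53 (SE 0.19, limma adjusted p = 0.163). It was higher at passage 43 in 4 of 5 lines and at the floor in the scrambled line. Cdh13 1375719_s_at differed by -0.20 (SE 0.14, limma adjusted p = 0.499). Its ratio was 0.739 in S1, 0.637 in S4 and 0.840 in S5, against 0.946 in the scrambled line and 1.35 in the untransfected line, the 1 line of 5 in which it was higher at passage 43. With an unadjusted limma p under 0.05 there was 1 probe set of 8, Cdh11 1391146_at, against 5903 of all 27520 probe sets.

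**Figure D4:**
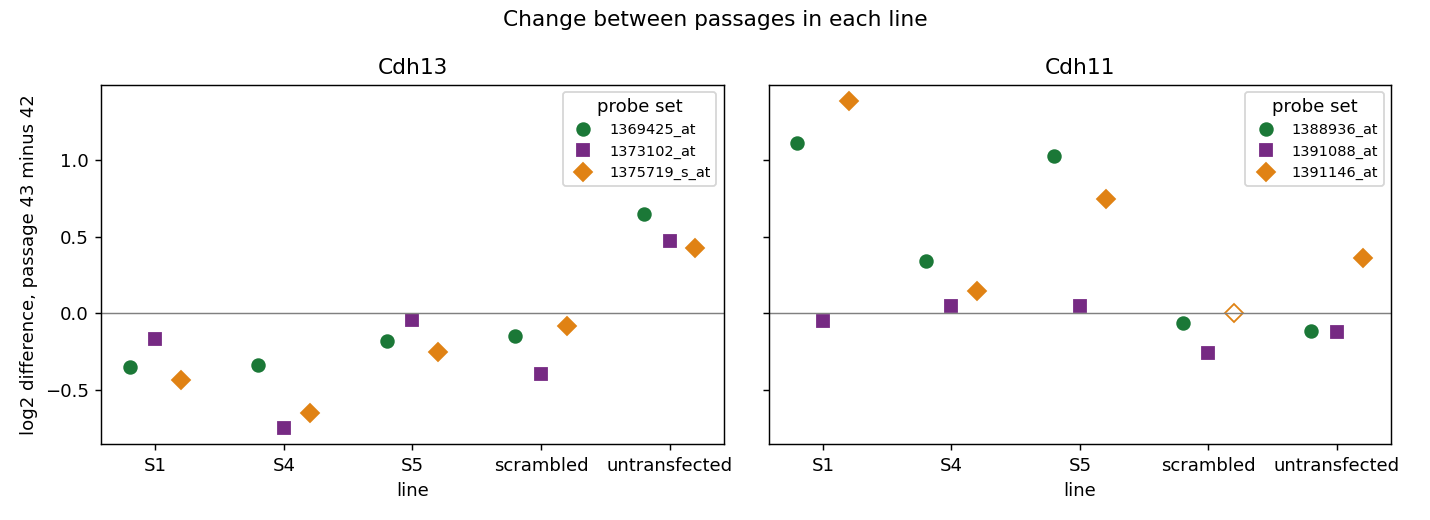
Log2 difference between passage 43 and passage 42 (vertical axis) in each line for the 3 probe sets of Cdh13 and of Cdh11, 1 point per line and probe set, with an open symbol where both passages were at the floor. Cdh13 is below 0 in all lines but the untransfected one, and Cdh11 1388936_at is above 0 in the 3 clones and slightly below 0 in both control lines.

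Genes whose log2 values over the 10 arrays ran most like each cadherin were taken from 3452 probe sets that varied by at least 1 log2 unit, as a description without a test over arrays of 5 lines. Cdh13 1375719_s_at was nearest to Wipf1, a partner of the actin regulator WASP (Pearson r 0.989), Entpd5, a nucleoside diphosphatase of the endoplasmic reticulum (0.986), and Pcp4, a regulator of calmodulin (0.984). Pcp4 was at 28.8 to 68.1 intensity units on the clone arrays, at 572 to 1116 on the scrambled arrays and at 1473 to 1960.1 on the untransfected arrays. Cdh11 1388936_at was nearest to Lgalsl, a galectin-like gene (0.982), Pde4b, a cyclic AMP phosphodiesterase (0.975), and Ccn3, a matricellular protein (0.975). Lgalsl was at 107 to 187 on the clone arrays, at the floor on both scrambled arrays and at 209 to 238 on the untransfected arrays. The Ccn3 values were 1101 to 2261 on the clone arrays, 333 to 386 on the scrambled arrays and 1564 to 1932 on the untransfected arrays. All 3 of these genes were low in the scrambled line, which follows from their choice by likeness to Cdh11 1388936_at. For Cdh2 1378271_at, which hardly varied, the nearest were Ttyh2, Dach1 and Hes1, at only 0.734, 0.700 and 0.686.

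The nearest measured genes on each side of Cdh13 and Cdh11 in the gene order of GRCr8 were examined to see whether their neighbourhoods moved with them; they were chosen after values had been seen. Beside Cdh13 these were Sdr42e1, Hsd17b2 and Mphosph6 on one side and Hsbp1, Mlycd and Osgin1 on the other, 1 to 3 genes away. None of the 6 passed between clones and control lines on line means, and their log2 differences ran from -0.82 to 0.38, against -3.35 for Cdh13 1375719_s_at. Osgin1, an oxidative stress response gene, was lower in the scrambled than in the untransfected line (log2 difference -1.38, limma adjusted p = 0.0154). Beside Cdh11 they were Cklf, Tk2 and Bean1, and Got2, Slc38a7 and Cnot1, none of which passed on line means. In the scrambled against the untransfected line, Bean1, a membrane protein that binds the ubiquitin ligase Nedd4, was lower (log2 difference -1.54, limma adjusted p = 0.000529) and Slc38a7, an amino acid transporter, was higher (log2 difference 0.59, limma adjusted p = 0.0171). The other 4 did not pass there.

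Genes that act with cadherins were followed in 7 lists on the means of the 5 lines, 3 clones against 2 control lines, so that the line was the unit. The control lines, scrambled and untransfected, were different conditions and differed at 6.1% of all probe sets. Their spread is therefore not that of replicates. The lists were chosen with earlier results of these data known, so their counts and p-values are descriptions. Each listed gene was taken from its brightest probe set, unlike the share over all probe sets. Of the 186 genes tested in these lists 7 were higher and 1 lower, against 0.898% of all probe sets past the limma threshold. This count rests on every clone: it was 0 without S1, without S4 or without S5. Then 37, 41 and 30 genes had an unadjusted limma p under 0.05 (43 with all lines, against 4251 of all 27520 probe sets). The count past the threshold was 26 without the scrambled line, 24 without the untransfected line, 0 with passage 42 alone (39 unadjusted) and 3 with passage 43 alone.

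Among other members of the cadherin superfamily, 38 of 55 listed genes had a probe set and 30 were tested. The 8 at the floor on all arrays were Cdh6, Cdh7, Cdh8, Cdh12, Dsg2, Dsc2, Pcdh9 and Pcdh10. Fat1, a giant atypical cadherin that binds actin regulators, was the only one to rise, at 5667 to 6260.5 intensity units on the clone arrays and 3354 to 4322 on the control arrays. Its log2 difference was 0.64 (SE 0.07, limma adjusted p = 0.0402), and none of the 30 fell. Against single control lines it passed in S1 and S4 and not in S5 (limma adjusted p = 0.0646 and 0.0699). The median of the 30 was 0.04, against -0.0084 over all probe sets. In single comparisons, chosen after their values were seen, Cdh15 (M-cadherin of muscle) was lower in each clone than in the scrambled line, at -0.65, -0.63 and -0.88. Cdhr1, a photoreceptor cadherin, was lower in each clone than in the untransfected line, at -1.02, -1.23 and -0.98. Cdh3 (P-cadherin) was higher in S1 than in the untransfected line, at 0.85, and Pcdh18, a protocadherin, was lower than in the untransfected line in S4 and in the scrambled line, at -0.60 and -0.78.

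Of 27 catenins and other proteins of the junction plaque, 2 rose and none fell, with a median of 0.28. Ajuba, a LIM protein that links junctions to signalling, rose by 0.77 (SE 0.07, limma adjusted p = 0.0337), with 2117 to 2526 intensity units on the clone arrays and 1009 to 1699 on the control arrays. Nectin3, an adhesion receptor of the adherens junction, rose by 0.57 (SE 0.07, limma adjusted p = 0.0488), with overlapping ranges of 755 to 1180.2 on the clone arrays and 539 to 768 on the control arrays. Neither gene passed in any clone against a single control line, where the limma adjusted p = 0.0993 to 0.196 for Ajuba and 0.361 to 0.453 for Nectin3. That fit has no passage term. Nectin3 and Ajuba differed by -0.50 and -0.31 on the log2 scale between passage 43 and passage 42. Such a shift adds to the spread of that fit, so not passing there says little. The core catenins that bind Cdh11, Cdh2 and Cdh1 were not among those that passed: Ctnnb1 was at -0.10 (SE 0.06, limma adjusted p = 0.514), Ctnna1 at 0.10 (SE 0.09, limma adjusted p = 0.625) and Ctnnd1 at 0.02 (SE 0.07, limma adjusted p = 0.943). Ctnnd2, the delta-catenin of neural cells, was lower in every clone against either control line, by log2 differences of -1.71 to -3.72 that all passed, while on line means it was at -2.81 (SE 0.43, limma adjusted p = 0.0744). In the scrambled against the untransfected line Vcl, Actn1, Zyx and Vasp, which anchor and organise actin, were lower, at -0.85, -0.86, -0.72 and -0.70, and Afdn was higher at 0.91. Vcl, Actn1 and Vasp were in turn higher in each clone than in the scrambled line, at 1.08 to 1.23, 0.89 to 1.03 and 0.60 to 0.75, and did not pass in any clone against the untransfected line. Ctnnd2 and these actin-linking genes were named after their values were seen.

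Of 24 genes that cleave, modify or dephosphorylate cadherins, 2 rose and none fell, with a median of 0.26. Pcsk6, a proprotein convertase of the family that matures cadherin precursors, was at 799.7 to 1478 intensity units on the clone arrays and 73.8 to 217 on the control arrays, a rise of 3.21 (SE 0.32, limma adjusted p = 0.0372). Adam9, a membrane metalloprotease, rose by 0.70 (SE 0.07, limma adjusted p = 0.0381). It passed in each clone against the untransfected line and in none against the scrambled line (limma adjusted p = 0.0609 to 0.0811). Adam10, the protease known for shedding classical cadherins, was higher than in the untransfected line in S1, S5 and the scrambled line, at 1.35, 1.33 and 0.97. Ptprk, a receptor phosphatase that acts on catenins, was higher in each clone than in the scrambled line, at 2.28, 2.15 and 2.09, and than in the untransfected line, at 0.79, 0.66 and 0.60, and was lower in the scrambled than in the untransfected line, at -1.49. Tmtc1, which helps mannosylate cadherins, was higher in each clone than in the scrambled line, at 1.08, 1.23 and 1.10. Adam10, Ptprk and Tmtc1 were named after their values were seen.

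Of 29 transcriptional regulators known from switches between Cdh1 and Cdh2, 1 rose and none fell, with a median of 0.03. Foxa2, a forkhead factor of endoderm, was at 691 to 2042 intensity units on the clone arrays and 119 to 337 on the control arrays, a rise of 2.87 (SE 0.27, limma adjusted p = 0.0317). In S4 against the untransfected line alone its adjusted p = 0.0638 by limma. Snai1 and Twist1, repressors of Cdh1, were lower in each clone than in the untransfected line, at -1.09 to -1.24 and -0.75 to -0.94. They were also lower in the scrambled than in the untransfected line, at -0.68 and -0.53, and did not pass in any clone against the scrambled line. Zeb2, another repressor of Cdh1, was lower than in the scrambled line in S4 and S5, at -1.22 and -1.19. On line means none of Snai1, Twist1 and Zeb2 passed (limma adjusted p = 0.179, 0.222 and 0.0688). Klf4 of the same list went the other way, higher than in the untransfected line in S1 and in the scrambled line, at 1.73 and 2.02. In S1 against the untransfected line 2 of the 29 passed as higher and 2 as lower. Zeb1 did not pass in any comparison of lines. Snai1, Twist1, Zeb2, Klf4 and Zeb1 were named after their values were seen.

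Of 31 epithelial junction and keratin genes 1 rose and none fell, with a median of -0.0011, and 6 more were at the floor on all arrays, Epcam, Krt23, Cldn2, Cldn4, Cldn8 and Cldn10. Dsp, the desmosomal plaque protein desmoplakin, was at 276 to 374 intensity units on the clone arrays and 66.2 to 118 on the control arrays, a rise of 1.82 (SE 0.10, limma adjusted p = 0.0127), and it passed in each clone against each control line. In single comparisons, chosen after their values were seen, Krt8, a keratin of simple epithelia, was higher in S4 than in the untransfected line, at 2.01. Ppl, the plaque protein periplakin, was higher than in the untransfected line in S1 and in the scrambled line, at 1.31 and 2.19, and lower in S4 than in the scrambled line, at -1.37. Of 28 mesenchymal and stellate cell genes none rose and 1 fell, with a median of -0.04. Fap, a fibroblast surface protease, was at 41.2 to 64.2 on the clone arrays and 123 to 243 on the control arrays, so that it fell (log2 difference -1.89, SE 0.19, limma adjusted p = 0.0381). Pdpn, the membrane mucin podoplanin, was at 3.58 on line means (SE 0.69, limma adjusted p = 0.113) and passed as higher in each clone against each control line, at 1.78 to 4.97. It was named after its values were seen, as was Acta2, which was higher in each clone than in the scrambled line, at 2.16, 2.43 and 2.10 in S1, S4 and S5, and lower in S1 and S5 than in the untransfected line, at -0.74 and -0.79. Of 17 partners of Cdh13 and genes of its lipid anchor 2 had an unadjusted limma p under 0.05, against 4251 of all 27520 probe sets. None of the 17 passed by limma, and their median was 0.00060. The largest differences were those of Itgb3, the beta 3 integrin, at -2.63 (SE 0.37, limma adjusted p = 0.0640), and of Cav2, a caveolin, at -0.60 (SE 0.33, limma adjusted p = 0.465). Itgb3 was lower in each clone against each control line taken singly, at -1.94 to -3.33. Adipoq, the ligand adiponectin, was at 29.5 to 35.5 on the clone arrays and 33.8 to 36.6 on the control arrays.

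**Figure D5:**
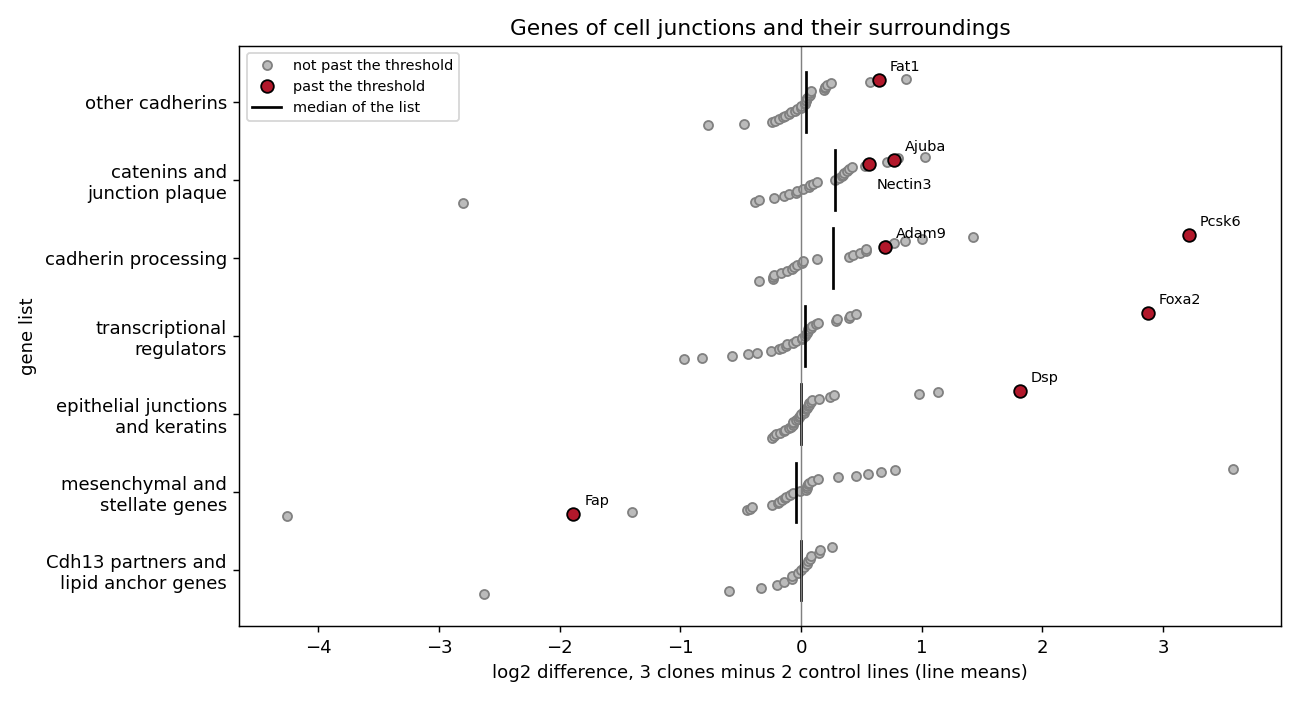
Log2 difference on line means (horizontal axis, 3 clones minus 2 control lines) of each tested gene in the 7 lists, 1 point per gene, with red points past the limma threshold and a black bar at the median of each list. The 8 red points are the genes named as past the threshold in the text, 7 to the right of 0 and Fap to the left.

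Markers of other liver cells were measured beside these results. Thy1 of the list of mesothelium and portal fibroblasts was at 85.6 to 440 intensity units on the clone arrays and 3346 to 5740 on the control arrays, and the summed level of the 10 measured genes of that list was 7118 to 10896 on the clone arrays, 15411 to 17293 on the scrambled arrays and 14696 to 16572 on the untransfected arrays. That sum was lower in the clones, as Cdh13 was, and its part in the Cdh13 result was not tested. The genes of the list had no common direction, and their median log2 difference on line means was 0.0044. Their medians in S1, S4 and S5 were 0.31, 0.16 and 0.29 against the untransfected line and -0.27, -0.25 and -0.22 against the scrambled line. On line means 1 of the 10 genes passed, Gpm6a, a membrane glycoprotein, which was higher in the clones (log2 difference 1.41, SE 0.15, limma adjusted p = 0.0382), and Thy1 was at -4.26 (SE 0.68, limma adjusted p = 0.0785). None of the 13 tested stellate cell markers of 14 passed, and 3 had an unadjusted limma p under 0.05, against 4251 of all 27520 probe sets. The stellate sum was 95101 to 101941 on the clone arrays, 86590 to 88087 on the scrambled arrays and 102552 to 107346 on the untransfected arrays, lowest in the scrambled line as Cdh11 was, and its part in the Cdh11 result was not tested. The median of the 13 was -0.065 in the scrambled against the untransfected line. In S1, S4 and S5 against the scrambled line it was -0.055, -0.061 and -0.047. The sums were 539 to 582 for hepatocyte markers on the clone arrays, against 553 to 578 on the scrambled and 532 to 601 on the untransfected arrays, with Cps1 at the floor. Cholangiocyte markers summed to 393 to 502 on the clone arrays, 379 to 397 on the scrambled and 517 to 649.9 on the untransfected arrays, with Epcam and Onecut1 at the floor. Endothelial markers summed to 745 to 822 on the clone, 836 to 885 on the scrambled and 843 to 858 on the untransfected arrays, with Lyve1 at the floor. Macrophage and leukocyte markers summed to 912 to 1080.1 on the clone, 923 to 994 on the scrambled and 803 to 1014 on the untransfected arrays, with Adgre1 and Cd163 at the floor. None of the 10, 6, 9 and 8 tested genes of these 4 lists passed by limma on line means, and unadjusted p was under 0.05 for 0, 0, 1 and 1 of them.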

How the data were processed

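Biotin-labelled total RNA (one-cycle cDNA synthesis, per the labels' protocols) was hybridised to Affymetrix arrays. The submitters' processing notes name RMA for the deposited intensities, which come as 1 column per array. Neither its version nor any further scaling is stated there. Values are linear with a floor of 20, and log2 was taken before testing. Gene names came from the platform annotation: 19202 tested probe sets had 1 symbol, 399 several and 7919 none. Array controls (57) and probe sets that never left the floor (3522) were not tested.

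Limma 3.58.1 in R 4.3.3 was fitted over 27520 probe sets with Benjamini-Hochberg adjustment and a threshold of 0.05. The fit had 1 coefficient per line over 10 arrays (5 residual degrees of freedom), from which the single comparisons and the F test between clones came. Passage was tested with line as a block (4 residual degrees of freedom), and clones against control lines on 5 line means (3 residual degrees of freedom). The procedures were tested on simulated data. Passage deviations of the 10 pairs of lines correlated at 0.136 to 0.648, so the passage number pairs the samples across lines. The main fits have no passage term, and the fit with passage as a replicate block is an alternative.

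The cadherins, the gene lists and the tests were chosen with earlier results of these data known. Each listed gene was taken from its brightest probe set with 1 symbol. Named from each list were up to 4 genes past the threshold on line means by size, or otherwise the 2 with the largest difference, and for likeness the 3 genes with the highest correlation per cadherin. Other names are said to have been chosen after their values were seen. Alternatives were quantile normalization, brighter probe sets only (mean log2 of at least 6), an intensity trend with a robust prior, the replicate block, single passages, another probe set per gene, and leaving out each array or line. Promoter and protein sequences of the cadherins were not used here.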

Additional observations from a re-analysis of the deposited data

Results flagged for a closer look

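The change of Cdh11 1388936_at between passages ran opposite ways in the clones and the control lines. Its mean log2 change, passage 43 minus passage 42, averaged 0.83 over the 3 clones and -0.09 over the 2 control lines, and these averages differ by 0.91. It was above 0 in every clone and below 0 in both control lines, and this difference was not tested.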

How the results depend on the processing

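All 212 alternative values of the adjusted p of the cadherin probe sets, between clones and between passages, stayed on the same side of the threshold. This says little about stability. Leaving out any 1 clone array left 0 passage calls over all probe sets, and between clones no setting called more than 25. Leaving out either array of a line gives the same passage fit, which the 212 count again. Of the alternative log2 differences of the cadherin probe sets, 751 moved by less than 1 SD of the replicates and 97 by more. None of the called ones changed sign. Many of the 751 could not move, so this count is no measure of stability. A difference between lines is unchanged by the trend and robust prior, the replicate block, the brightness filter or the loss of another line's array. Of the alternative values of the named list genes, 58 stayed on their side of the threshold, 38 lost it and 4 gained it. With passage as a replicate block, limma called 2129, 1906 and 1845 probe sets in S1, S4 and S5 against the scrambled line (1153, 1002 and 948 without it), 2439, 1904 and 2103 against the untransfected line (1205, 970 and 999 without it), 3602 between scrambled and untransfected (1679 without it) and 25 between clones (9 without it, 17 with the trend and robust prior). Leaving out 1 array gave 243 to 1206, 309 to 1095 and 228 to 958 against the scrambled line, 216 to 2357, 257 to 1918 and 180 to 2136 against the untransfected line, 608 to 3224 between scrambled and untransfected, and 4 to 8 between clones. For passage it gave 0 to 1698, with 0 without any one clone array and 782 without either scrambled array. On line means 247 were called, 3 with passage 42 alone, 80 with passage 43 alone, and 0 to 2968 leaving out a line: 0 without S1 or S5 (2508 and 2416 at an unadjusted p under 0.05, 4251 with all lines), 2 without S4, 2968 without the scrambled and 1693 without the untransfected line. In the 7 lists together 8 genes were called, 0 with passage 42 alone, 3 with passage 43 alone, and 0 to 26 leaving out a line. Leaving out an array or line leaves fewer residual degrees of freedom, and without a control line the spread comes from the clones alone; other causes were not tested. Values at the floor limit Cdh2 and Cdh1.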

Other observations

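Between passages, 10 of the 186 genes of the 7 lists passed, a share of 5.38% against 5.52% of all probe sets, so these counts are no result about the lists. None of the 30 other cadherins and none of the 28 mesenchymal and stellate cell genes passed. Of the junction plaque list, 3 of 27 fell at passage 43 and none rose: Pkp1 and Pkp2, plakophilins of the desmosome, and Nectin3, with log2 differences of -0.52, -0.49 and -0.50 (limma adjusted p = 0.0414, 0.0139 and 0.0124). Of the cadherin processing list, 3 of 24 rose and none fell: Adam15, a membrane metalloprotease, Mmp14, a membrane-bound matrix protease, and Psenen, a subunit of gamma-secretase, by 0.44, 0.50 and 0.39 (limma adjusted p = 0.0198, 0.0155 and 0.0213). Of the 29 regulators, Sox4, a transcription factor, rose by 0.73 and Ezh2, the histone methyltransferase of Polycomb, fell, at -0.58 (limma adjusted p = 0.0123 and 0.0170). Krt14, a basal keratin, was the only one of 31 epithelial genes to pass and Cav2 the only one of 17 partners of Cdh13, and both fell, at -0.65 and -0.35 (limma adjusted p = 0.0175 and 0.0224). These genes were named after their values were seen, and leaving out any 1 of the 6 clone arrays left 0 passage calls over all probe sets by limma, with 4480 to 4830 at an unadjusted p under 0.05 (5903 with all arrays).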
